A study of Mus musculus with 16 samples.

Results

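PP1 and PP2 are cell populations that were sorted by flow cytometry from mouse femurs and labelled as periosteal progenitors, type 1 and type 2. Their RNA was sequenced in 4 libraries each, 8 of the 16 libraries of the study. The other libraries came from periosteal stem cells (PSC, 4 libraries) and from mesenchymal stem cells labelled as endosteal and negative for the reporter (MSC, 4 libraries). All mice were C57/B6, were 6 days old, and had the genotype CTSK-cre+ mTMG, so the animals behind PP1 and PP2 shared strain, age and alleles. In such mice Cre is driven by the promoter of Ctsk, the gene for the collagen-cleaving protease cathepsin K, and a cell in which it has been active, with all its descendants, turns from membrane Tomato to membrane GFP. The samples came from 1 litter on 1 day and were not pooled. Whether the 4 libraries of a population stand for different mice is not labelled. The spread behind each p-value is therefore that of the libraries and may be technical. Of the 22559 genes of the table, 13797 reached a normalized count of 10 in 4 or more of the 16 libraries and were compared. A normalized count is the number of reads of a gene divided by 1 size factor for its library, so it is not corrected for gene length and is compared here only within a gene.

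The periosteum is the sheet of connective tissue around a bone. Its inner layer holds the cells that form bone in growth and repair, and its outer layer is fibrous. Cells of this lineage can make bone directly or by way of cartilage. They secrete collagens and small proteoglycans, and they exchange signals such as hedgehog, Wnt and BMP proteins with their neighbours. In the published description of these sorts the gates that separate PP1 from PP2 are set on the surface proteins CD200 and CD105. Other gates of the sort are not described here. The genes for those 2 proteins are therefore a check of the sort and not a finding.

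The libraries held 22306403 to 32678670 reads in PP1 and 24302376 to 41152070 in PP2. The share of tested genes without a read was 8.79% to 10.9% in PP1 libraries. It was 13.6% and 16.4% in PP2 replicates 1 and 3, against 7.84% and 7.85% in PP2 replicates 2 and 4. The first principal component of the 8 libraries (22.6% of the variance) set PP2 replicate 3 apart at 181.5, and the second (18.6%) set PP2 replicate 1 apart at -165.8. The results below therefore give values without these 2 libraries for some of the calls that were lost without them. Calls also lost without them, with no value given below, included those of Cadm1, Cd40, Efemp1, Fam154b, Fap, Gpihbp1 and Gsg1l. The same holds for Isg20, Laptm5, Pecam1, Pitx1, Slc37a2 and Slco2b1. The lineage markers fitted the label of both populations. Prrx1, a transcription factor of limb mesenchyme, was at 5632 to 6679 normalized counts in PP1 and 3645 to 5248 in PP2, without overlap. Postn, the periosteal matrix protein periostin, was at 35790.2 to 67280.5 in PP1 and 28923 to 52840.1 in PP2. None of the 23 tested periosteal and mesenchymal lineage markers passed the test between PP1 and PP2. Their median log2 difference of PP1 minus PP2 was 0.19, against 0.02 for all tested genes, and 17 of the 23 were positive. At an unadjusted p under 0.05 (limma), 4 were higher and 0 lower in PP1, against 6.86% and 6.12% of all tested genes.

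**Figure D1:**
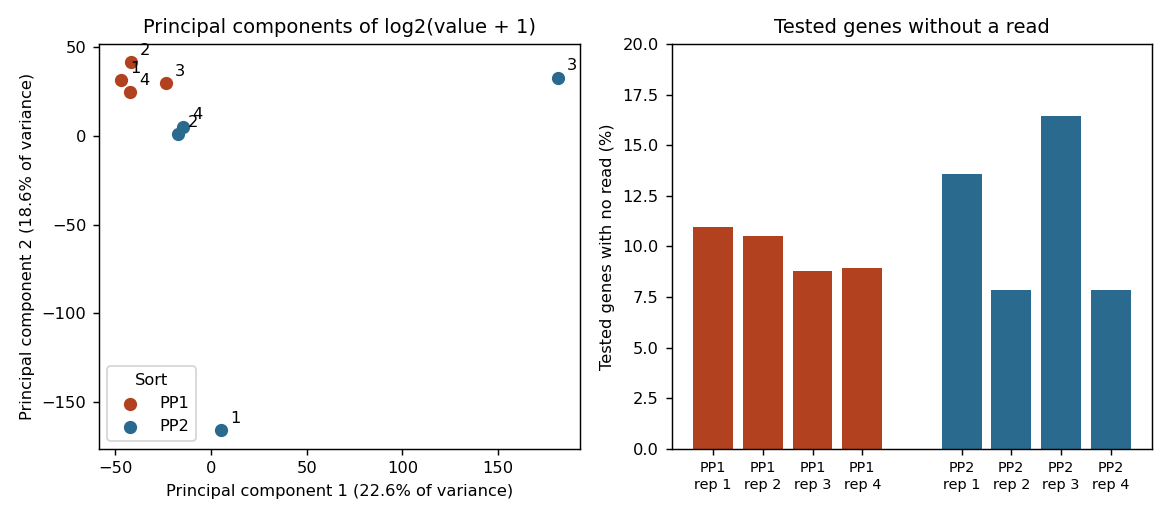
Left, the 8 libraries on the first 2 principal components of log2(normalized count + 1), with replicate numbers. Right, the percentage of tested genes without a read in each library. PP2 replicates 3 and 1 lie apart at 181.5 on the first component and -165.8 on the second, and they have the largest shares of genes without a read (16.4% and 13.6%).

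Eng, which encodes CD105 (chromosome 2, 32646595 to 32682669 in GRCm38), had 578, 863, 669 and 751 normalized counts in PP1, against 5330.5, 3252, 4839.6 and 5177 in PP2. The groups did not overlap. The log2 difference of PP1 minus PP2 was -2.69 ± 0.19 (SE), a level 6.44-fold lower in PP1 (limma, adjusted p = 3.54e-07). Cd200 (chromosome 16, 45382135 to 45409053) had 733, 807, 671 and 1065 normalized counts in PP1, against 2084, 1865, 2570.2 and 1603 in PP2. It was 2.48-fold lower in PP1 (log2 difference -1.31 ± 0.16 SE, adjusted p = 0.000323). Both differences run in the direction of the published gates, with PP1 low for CD105. The other 3 surface genes used to describe skeletal stem cells did not pass. Itgav, integrin alpha V, averaged 2112 ± 107 in PP1 and 2879 ± 199.9 in PP2 (SD, n = 4 each), and its groups did not overlap, but the adjusted p was 0.0725. Thy1, which encodes CD90, averaged 148 ± 51.1 in PP1 and 77.8 ± 71 in PP2 (adjusted p = 0.428). Enpep, which encodes aminopeptidase A, averaged 142 ± 35.1 in PP1 and 172 ± 155 in PP2 (adjusted p = 0.744).

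Of the 13797 genes, 115 differed between PP1 and PP2 at an adjusted p of 0.05 (0.834%), 66 of them higher in PP1 (0.478%) and 49 lower (0.355%). At an unadjusted p under 0.05 the shares were 6.86% higher and 6.12% lower. Libraries did not overlap for 105 of the 115, while 4.74% of all tested genes had libraries that did not overlap. The median log2 difference of all tested genes was 0.02, with quartiles of -0.26 and 0.34. A difference of more than 2-fold was found for 54 of the 66 higher genes and 23 of the 49 lower genes. The 2 directions differed in the level of the genes. Of the 66 higher genes, 36 had no read in at least 1 PP2 library and 12 had none in any PP2 library. Of the 49 lower genes, 41 had reads in all 8 libraries. PP2 replicates 1 and 3 lacked reads for 34 and 32 of the 66 higher genes, and replicates 2 and 4 for 22 and 21. The part of their missing reads in the result was not tested beyond leaving them out, which gave 105 calls (65 higher, 40 lower), 60 of them shared. Tested only where all 8 libraries had a read, 77 genes passed, 32 higher and 45 lower. With the 8 PP1 and PP2 libraries alone in the fit 28 genes passed, 14 in each direction. In that fit many calls described below were lost, among them Ihh (adjusted p = 0.276), Epyc (0.272), Ifitm5 (0.276), Bglap (0.124), Acp5 (0.286), Ctsk (0.13), Cdh5 (0.347), Chad (0.101), Car12 (0.0683), Adh1 (0.0658) and Cst3 (0.0622). Each of the 8 libraries was also left out in turn, and 61 of the 115 calls held in all of these fits, 33 higher and 28 lower. A named gene whose call was lost in such a fit is marked below.

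**Figure D2:**
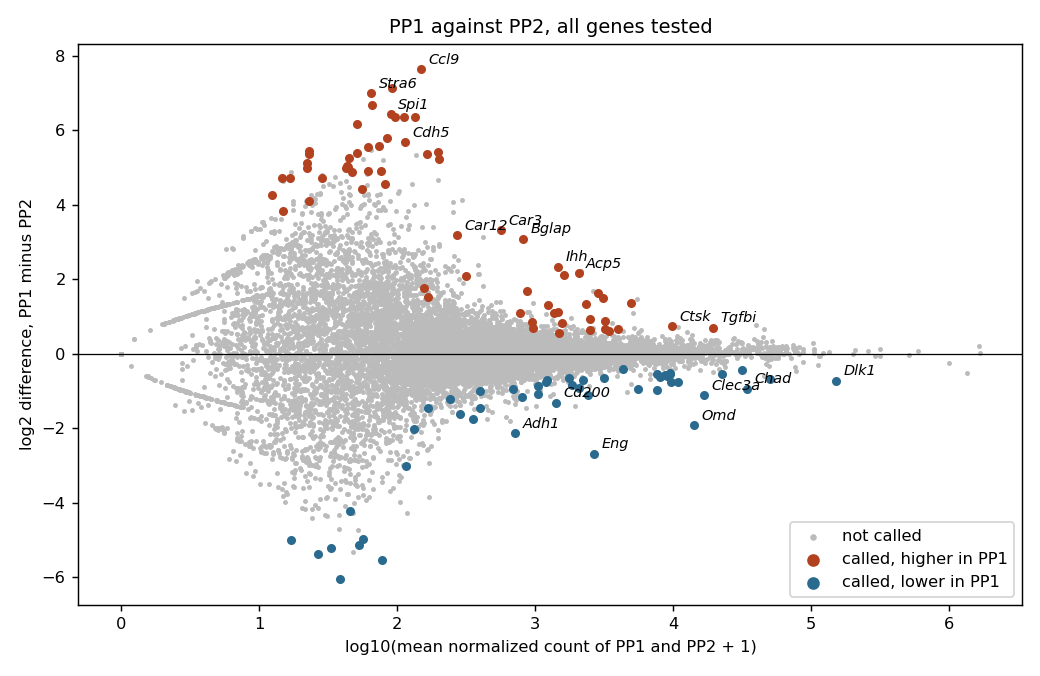
Log2 difference of PP1 minus PP2 (vertical) against log10 of the mean normalized count of both populations plus 1 (horizontal) for the 13797 tested genes. Coloured points are the 66 called genes higher in PP1 and the 49 lower in PP1. The lower genes include abundant ones such as Dlk1, Omd and Chad, and most higher genes with large differences have low counts.

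Of the genes not used to sort the cells, Omd had the smallest adjusted p. It encodes osteomodulin, a small leucine-rich proteoglycan that binds collagen in mineralising matrix (chromosome 13, 49582462 to 49592822, plus strand). Omd had 6011, 4404, 7072 and 6541 normalized counts in PP1, against 22290.3, 22113, 21978 and 23405 in PP2. Every PP1 library was below every PP2 library by a wide margin. The level was 3.79-fold lower in PP1 (log2 difference -1.92 ± 0.16 SE, adjusted p = 1.69e-06), and the call held in all 22 alternatives. The PSC and MSC means were 28925 ± 6637 and 26784 ± 4924 (SD, n = 4 each). PP1 was therefore the low population of the 4 in mean level. The span of Omd overlaps that of an annotated gene on the opposite strand, Cenpp. Whether exons of the pair overlap was not examined, and the strand setting of the counting is not given in the sources used here. Whether reads of the pair were mixed is therefore not known.

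The promoter window of Omd is shown with those of Bglap and Acp5, which stand for the bone matrix and osteoclast genes described further on. Each window runs from 250 bases before to 50 bases after an annotated start, written 5′ to 3′ on the strand of the gene, from RefSeq on GRCm38.p6. Capitals mark matches on either strand to TGTGGT, the core bound by RUNX factors, CATGTG, an E-box of the type bound by MITF, or AGGAAG, an ETS core. TGTGGT and CATGTG overlap where CATGTG is followed by GT. The Omd window (chr13:49582212-49582511, plus strand) held no match. The Bglap window (chr3:88384417-88384716, minus strand) held 1 match to TGTGGT and 1 to CATGTG. The Acp5 window (chr9:22130549-22130848, minus strand, 1 of 3 starts listed) held 1 match to CATGTG. Of 32851 windows, 16.8% held TGTGGT, 14.2% held CATGTG and 35.4% held AGGAAG. A match is a run of letters and not evidence of binding.
Omd: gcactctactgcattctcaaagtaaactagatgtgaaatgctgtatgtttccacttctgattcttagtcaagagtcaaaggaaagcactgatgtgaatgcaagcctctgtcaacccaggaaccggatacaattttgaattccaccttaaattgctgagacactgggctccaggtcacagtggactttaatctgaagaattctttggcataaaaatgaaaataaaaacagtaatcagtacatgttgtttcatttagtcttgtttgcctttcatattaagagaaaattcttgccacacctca
Bglap: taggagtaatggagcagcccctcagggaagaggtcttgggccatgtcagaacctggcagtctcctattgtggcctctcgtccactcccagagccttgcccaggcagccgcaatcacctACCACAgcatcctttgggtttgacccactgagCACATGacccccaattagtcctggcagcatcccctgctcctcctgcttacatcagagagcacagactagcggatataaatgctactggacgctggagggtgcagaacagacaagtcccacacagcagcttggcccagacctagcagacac
Acp5: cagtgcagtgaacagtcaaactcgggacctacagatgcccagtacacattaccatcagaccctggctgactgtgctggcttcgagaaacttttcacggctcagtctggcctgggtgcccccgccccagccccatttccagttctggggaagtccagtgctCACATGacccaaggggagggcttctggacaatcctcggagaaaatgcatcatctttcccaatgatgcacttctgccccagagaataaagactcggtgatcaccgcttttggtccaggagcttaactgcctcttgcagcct

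Of 14 tested small leucine-rich proteoglycans, 3 were called lower and 0 higher, against 0.355% and 0.478% of all genes, and the list median was 0.14. The list does not hold Epyc, a proteoglycan of the same family that was called higher in PP1 (below). Beside Omd, the 2 lower genes were Chad, chondroadherin, which binds collagen and integrins, and Chadl, a relative of Chad that binds collagen. Chad had 17551, 24537, 29123 and 23506 normalized counts in PP1, against 39684, 42802, 50027 and 46618 in PP2. It was 1.91-fold lower in PP1 (log2 difference -0.94 ± 0.15 SE, adjusted p = 0.00251). Chadl had 7097, 7382, 6721 and 7403 in PP1, against 11227, 11664, 12153 and 13262 in PP2, and was 1.69-fold lower (adjusted p = 0.00251). In neither gene did the groups overlap. The remaining 11 members of the list did not pass in either direction.

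Other secreted or surface proteins had the same direction, and the 6 given here were picked with their values in view. Clec3a, a cartilage lectin, had 9709, 9532, 13333 and 10395 normalized counts in PP1, against 20529.6, 23674, 24135 and 23789.9 in PP2. It was 2.16-fold lower in PP1 (log2 difference -1.11 ± 0.12 SE, adjusted p = 3.92e-05). Fbln7, fibulin 7, a cell adhesion protein, had 7231, 9316, 7597 and 8382 in PP1, against 14774, 13397, 12988 and 13863 in PP2 (1.70-fold lower, adjusted p = 0.00165). The groups of both genes stood apart, and both calls held in every alternative. Srpx2, a secreted sushi-domain protein, was 1.52-fold lower in PP1 (adjusted p = 0.00281), and its relative Srpx 1.46-fold lower (adjusted p = 0.0208). The Srpx call was lost without PP1 replicate 1 (0.0675) or 2 (0.0518) or PP2 replicate 4 (0.0513). Fap, a surface protease of activated fibroblasts, was 1.42-fold lower (adjusted p = 0.0305), but the call was lost without PP1 replicate 1 (0.0853), 2 (0.0602) or 3 (0.0651) or PP2 replicate 2 (0.0751) or 3 (0.0613). Kazald1, an insulin-like growth factor binding relative found in bone, was 1.54-fold lower (adjusted p = 0.015), lost without PP1 replicate 1 (0.0522) or 3 (0.0508).

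Cst3, cystatin C, an inhibitor of cathepsins, had 39739.5, 40381, 35296 and 40168 normalized counts in PP1, against 60549, 73141, 55625 and 62194 in PP2. It was 1.61-fold lower in PP1 (log2 difference -0.69 ± 0.11 SE, adjusted p = 0.00296). Ctsk, the gene whose promoter drove the reporter, moved the other way. It had 13108, 12673, 13927 and 9643 normalized counts in PP1, against 7962, 7162, 8071 and 6377 in PP2. The groups did not overlap, and PP1 was 1.66-fold higher (log2 difference 0.73 ± 0.14 SE, adjusted p = 0.00949). These were the only calls among the 14 tested cathepsins and cystatins. PSC and MSC averaged 2751 ± 558 and 2082 ± 136 for Ctsk, so both progenitor means were above both stem cell means. Osteoclasts, the bone-resorbing cells, are also known to express Ctsk. Of 11 tested osteoclast genes, 3 were called higher in PP1, against 0.478% of all tested genes, or 1 of 11 without PP2 replicates 1 and 3. The part of osteoclasts in the Ctsk difference was not tested.

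Basement membrane genes gave calls in both directions. Lamc1 and Lamb1 encode chains of laminins, which build the sheet around muscle fibres, vessels and nerves. Lamc1 had 7176, 8654, 8333 and 6661 normalized counts in PP1, against 12943, 9404, 11729.7 and 11298 in PP2 (1.47-fold lower, adjusted p = 0.0436). Lamb1 had 5396, 2758, 3686 and 3479 in PP1, against 10237, 6268, 6206 and 6674 in PP2 (1.93-fold lower, adjusted p = 0.0368). The groups did not overlap in either gene. Col18a1, the source of endostatin, went the other way, with 2009.9, 2274, 1696 and 2049 in PP1 against 1101, 930.3, 1108 and 1417 in PP2 (1.77-fold higher, adjusted p = 0.0119). These were the calls among 23 tested members, against 0.834% of all tested genes, and the list median was -0.09. All 3 were lost without PP2 replicates 1 and 3 (0.182 for Lamb1, 0.278 for Lamc1 and 0.0799 for Col18a1). With single libraries left out, Col18a1 kept its call in all 8 fits. Lamb1 lost it without PP1 replicate 2 (0.107), 3 (0.0715) or 4 (0.0871) or PP2 replicate 1 (0.104). Lamc1 lost it without PP1 replicate 1 (0.0954), 3 (0.0508) or 4 (0.11) or PP2 replicate 1 (0.111), 3 (0.0776) or 4 (0.068).

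**Figure D3:**
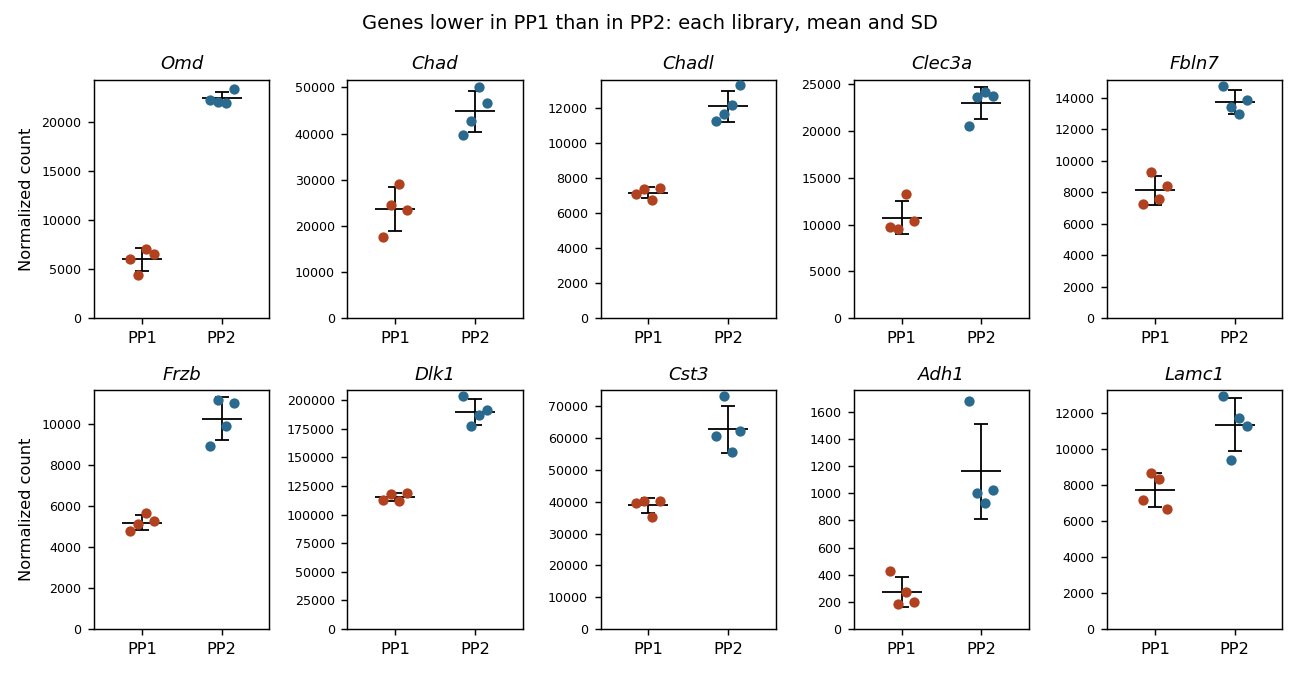
Normalized counts of 10 genes lower in PP1, with 1 point per library, the mean as a short line and the SD as whiskers (n = 4 each). In Omd the 4 PP1 libraries lie at 4404 to 7072 and the 4 PP2 libraries at 21978 to 23405; in Lamc1 the highest PP1 library (8654) lies close to the lowest PP2 library (9404).

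Frzb was called lower in PP1 among the Wnt genes. It encodes a frizzled-related protein that binds Wnt ligands outside the cell. Frzb had 4745, 5091, 5635 and 5250.0 normalized counts in PP1, against 8932, 11148, 9862 and 11024 in PP2. It was 1.97-fold lower in PP1 (log2 difference -0.98 ± 0.10 SE, adjusted p = 4.77e-05), and the call held in every alternative. Sfrp5, a related Wnt antagonist, had 2989, 4544, 3765 and 5387 in PP1, against 498, 1701, 1839.8 and 1956 in PP2. It was 3.08-fold higher in PP1 (log2 difference 1.62 ± 0.33 SE, adjusted p = 0.019), lost without PP1 replicate 2 (0.0576) or 4 (0.0717). So the only 2 calls among 50 tested Wnt genes were antagonists that differed in opposite directions. Another antagonist, Wif1, averaged 35997 ± 5371 in PP1 and 55028 ± 11038 in PP2 and did not pass (adjusted p = 0.127). The receptor Fzd1 averaged 6444 ± 1557 in PP1 and 4041 ± 1357 in PP2 (adjusted p = 0.14). The median of the 50 Wnt genes was 0.42, against 0.02 for all tested genes. A positive log2 difference was found for 36 of the 50, against 7252 of all 13797. At an unadjusted p under 0.05 (limma), 13 of the 50 were higher and 3 lower in PP1, against 6.86% and 6.12% of all tested genes.

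Dlk1, a membrane protein related to Notch ligands that is known to hold back differentiation of mesenchymal cells, was the most abundant called gene. It had 112909, 117652, 111786 and 118617 normalized counts in PP1, against 204066, 177186, 187035 and 191675 in PP2. Every PP1 library was below every PP2 library. The level was 1.65-fold lower in PP1 (log2 difference -0.72 ± 0.13 SE, adjusted p = 0.00923), and without PP2 replicates 1 and 3 the adjusted p was 0.0769. Pdgfrl, a secreted relative of the PDGF receptors, was 1.48-fold lower in PP1, with means of 7123 ± 766 in PP1 and 10478 ± 591 in PP2 (adjusted p = 0.00281). These were the only calls among 18 Notch genes and 27 PDGF and VEGF genes. The medians of the 2 lists were 0.42 and 0.11, against 0.02 for all tested genes.

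The vitamin A genes Adh1, Retsat and Stra6 were each called, in both directions, and were set side by side with their values in view. Adh1, an alcohol dehydrogenase that can oxidise retinol, had 425, 186, 272 and 202 normalized counts in PP1, against 1683, 1005, 929 and 1028 in PP2. It was 4.38-fold lower in PP1 (log2 difference -2.13 ± 0.33 SE, adjusted p = 0.00251). PP2 was the high population for this gene, since PSC averaged 157 ± 34.2 and MSC 85 ± 15.6. Retsat, retinol saturase, had 447, 450.2, 540.3 and 441 in PP1, against 1010.0, 881, 872 and 852 in PP2 (1.92-fold lower, adjusted p = 0.0113). Its adjusted p was 0.0769 without PP2 replicates 1 and 3. Stra6, a receptor that takes up retinol from its carrier, went the other way, with 125, 153, 103 and 132 normalized counts in PP1 and no read in any PP2 library. Against a floor of 3 reads per library its level in PP1 was at least 42.6-fold higher (adjusted p = 0.00212), and every alternative that tested it kept the call. Cox4i2, a subunit of cytochrome c oxidase known to respond to low oxygen, had 1495, 1527, 1629.8 and 1454 in PP1, against 3475, 3979, 2574 and 3219 in PP2. It was 2.14-fold lower in PP1 (log2 difference -1.10 ± 0.14 SE, adjusted p = 0.000363), the call held in every alternative, and the gene was picked for these values.

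A few weakly expressed genes were near 0 in PP1. Cd40, a receptor of the tumour necrosis factor family, had 44.8, 0, 0 and 0 normalized counts in PP1, against 117, 58.7, 285 and 105 in PP2 (adjusted p = 0.0178). Its call was lost without PP1 replicate 2 (0.0538), 3 (0.0508) or 4 (0.0554). Hunk, a kinase, had 38.8, 47.8, 7.89 and 12.6 in PP1, against 226, 231, 66.3 and 284 in PP2 (adjusted p = 0.0333). Hunk lost its call without PP1 replicate 3 (0.0717) or 4 (0.0782) or PP2 replicate 1 (0.0779), 2 (0.0751) or 4 (0.0739). Col7a1, the anchoring fibril collagen, had 0, 0, 0 and 36.4 in PP1, against 72.5, 84.8, 50.4 and 169.7 in PP2 (adjusted p = 0.0143). It was the only call among 24 fibrillar and associated collagens. Levels this low rest on few reads, and the calls of Cd40, Hunk and Col7a1 were also lost with edgeR on recovered reads (adjusted p = 0.616 for Cd40, 0.249 for Hunk and 0.729 for Col7a1, with RLE factors). Of the 49 lower genes, 4 had no read in any PP1 library. Tmf1, a Golgi protein, was 1 of them, with 69.2, 27.5, 94.1 and 15 in PP2, and its level in PP1 was at least 14.8-fold lower (adjusted p = 0.00172). Tmf1 also lost its call with edgeR (0.309 with RLE and 0.307 with TMM factors) and with voom (0.2).

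Further genes with large falls code for membrane proteins or have little known role in bone. Tmem117, a membrane protein, had 162, 384, 215 and 129 normalized counts in PP1, against 549.5, 499, 569 and 657 in PP2 (2.77-fold lower, adjusted p = 0.00514). Slco2b1, an organic anion transporter, had 132, 141, 125 and 176 in PP1, against 302, 330.2, 420.2 and 298 in PP2 (2.34-fold lower, adjusted p = 0.027). Neither gene had overlapping groups. The Slco2b1 call was lost without PP1 replicate 1 (0.0516), 2 (0.0502) or 3 (0.0547) or PP2 replicate 3 (0.0579). Isg20, an exonuclease induced by interferon, had 96.9, 56.1, 169.6 and 56 in PP1, against 253, 266, 262 and 177 in PP2 (2.77-fold lower, adjusted p = 0.0343). It lost its call without PP1 replicate 2 (0.0848) or 4 (0.0822) or PP2 replicate 1 (0.0695), 2 (0.07) or 3 (0.0588). Tmem117 kept its call with any single library left out, but had an adjusted p of 0.168 with edgeR and RLE factors.

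The remaining genes with large differences are less well known in bone. Fam211b had 195, 146, 317 and 63 normalized counts in PP1, against 474, 477, 559 and 585 in PP2 (3.36-fold lower, adjusted p = 0.0167). Its adjusted p was 0.083 without PP2 replicates 1 and 3 and 0.188 with edgeR and RLE factors. Gsg1l, a protein associated with glutamate receptors in neurons, had 229, 105, 169.6 and 81.2 in PP1, against 475, 378, 308 and 547 in PP2 (3.07-fold lower, adjusted p = 0.0209). It lost its call without PP1 replicate 2 (0.0601) or 4 (0.0632) or PP2 replicate 1 (0.0567) or 4 (0.0513). Fam154b had 21.8, 3.12, 0 and 0 in PP1, against 138, 49.1, 139 and 90.3 in PP2 (adjusted p = 0.0283), and lost its call without PP1 replicate 2 (0.0501), 3 (0.0715) or 4 (0.0782) or PP2 replicate 1 (0.0695) or 3 (0.0579). PP1 and PP2 did not overlap in these 3 genes. Slc37a2, a sugar phosphate transporter of macrophages and osteoclasts, differed in the other direction, with 136, 256, 391 and 78.4 in PP1 and 0, 0, 0 and 24.2 in PP2 (adjusted p = 0.0241). Slc37a2 lost its call without PP1 replicate 2 (0.0649) or 3 (0.0684) or PP2 replicate 1 (0.0668), 2 (0.0561) or 3 (0.0534).

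Ihh, Car12 and Panx3 were called higher in PP1 among the hypertrophic chondrocyte and hedgehog genes. Ihh encodes Indian hedgehog, the secreted signal of prehypertrophic chondrocytes (chromosome 1, 74945315 to 74951672). Ihh had 2715, 1417, 3344 and 2118 normalized counts in PP1, against 502, 216, 1159 and 333 in PP2. The lowest PP1 library was above the highest PP2 library. PP1 was 5.04-fold higher (log2 difference 2.33 ± 0.34 SE, adjusted p = 0.00165). Car12, a membrane carbonic anhydrase, had 615, 595, 266 and 475 in PP1, against 67, 29.7, 39.8 and 79.4 in PP2, and was 9.08-fold higher (log2 difference 3.18 ± 0.31 SE, adjusted p = 2.25e-05). Panx3, a channel protein of hypertrophic chondrocytes and osteoblasts, had 4576, 3269.7, 2586 and 2596 in PP1, against 1107, 1142, 2569 and 743 in PP2. It was 2.54-fold higher (adjusted p = 0.0134), with an adjusted p of 0.0516 without PP1 replicate 1, and its closest libraries nearly touched. Slc38a3, a glutamine transporter on the same list, was 1.80-fold lower in PP1 (adjusted p = 0.00804, and 0.086 without PP2 replicates 1 and 3).

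These 4 were the calls among 22 tested hypertrophic chondrocyte and hedgehog genes, against 0.834% of all tested genes. The list median was 0.26, against 0.02 for all tested genes. The genes through which hedgehog signals are received did not pass. Smo, the signal-transducing membrane protein, averaged 12355 ± 1362 in PP1 and 11817 ± 737 in PP2. Ptch1, the receptor and a target, averaged 2009 ± 283 in PP1 and 1744 ± 557 in PP2 (adjusted p = 0.644). Gli1, the usual readout of the pathway, averaged 811 ± 296 in PP1 and 651 ± 132 in PP2 (adjusted p = 0.772). Col10a1, the collagen of hypertrophic cartilage, ranged from 951 to 13072 in PP1 and from 109 to 15867 in PP2, so the spread within each population exceeded the difference (adjusted p = 0.709). Pth1r, the receptor of parathyroid hormone-related protein, was at 7406 to 9998 in PP1 and 6329 to 8665 in PP2 (adjusted p = 0.638).

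Of 25 chondrocyte genes, Epyc was called higher and Chad (above) lower, against 0.478% and 0.355% of all tested genes. Epyc encodes epiphycan, a cartilage proteoglycan, and had 6139.9, 5665, 4019.8 and 2597 normalized counts in PP1, against 1571, 1816, 2011 and 1002 in PP2 (2.82-fold higher, adjusted p = 0.00422). Ppa1, a cytosolic pyrophosphatase, had 11136, 8587, 5464 and 4086 in PP1, against 3298, 2747, 2569 and 2063 in PP2 (2.58-fold higher, adjusted p = 0.00519). Slc13a5, a citrate transporter, had 2143, 1500.2, 2138 and 2202 in PP1, against 1092, 849, 1152 and 614 in PP2 (2.19-fold higher, adjusted p = 0.00519). Ppa1 and Slc13a5 were picked with their values in view. All 3 had groups that did not overlap. Like Ihh, Car12 and Panx3, these genes were far higher in PSC than in either progenitor sort. PSC averaged 23786 ± 2182 for Ihh, 4706 ± 695 for Car12, 32214 ± 3601 for Panx3, 36901 ± 8687 for Epyc, 65541 ± 7141 for Ppa1 and 15227 ± 1994 for Slc13a5 (SD, n = 4 each). In each of the 6 the PP1 mean lay between the PSC mean and the PP2 mean. The MSC mean was also above the PP1 mean in each of the 6, so this order is not particular to PSC. MSC averaged 5288 ± 641 for Ihh, 968 ± 321 for Car12 and 8113 ± 1351 for Panx3. It averaged 9415 ± 1972 for Epyc, 12029.5 ± 2954 for Ppa1 and 3593 ± 989 for Slc13a5.

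Bone matrix genes called higher in PP1 were Bglap and Ifitm5. Bglap encodes osteocalcin, a protein of mature osteoblasts (chromosome 3, 88383501 to 88384464). It had 1031, 2243, 1693 and 849 normalized counts in PP1, against 168, 159.9, 361 and 64.4 in PP2. PP1 was 8.48-fold higher (log2 difference 3.08 ± 0.41 SE, adjusted p = 0.000571). The paralog Bglap2 had 275, 554, 521 and 388 in PP1, against 126, 59.5, 0 and 104 in PP2, and did not pass (adjusted p = 0.0755). Reads of these near-identical genes can be split between them, so the level of either alone is uncertain. Ifitm5, an osteoblast membrane protein, had 285, 709, 367 and 661 in PP1, against 60.4, 182, 138 and 98.6 in PP2 (4.22-fold higher, adjusted p = 0.00334).

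Cadm1, an adhesion molecule of osteoblasts, was 2.14-fold higher in PP1 (adjusted p = 0.0311), but its groups overlapped. Its call was lost without PP1 replicate 1 (0.0539), 2 (0.0882) or 3 (0.0721) or PP2 replicate 1 (0.0736) or 2 (0.08). Of 28 tested osteoblast and osteocyte genes, 3 were higher and 1, Omd, was lower, against 0.478% and 0.355% of all tested genes. The list median was 0.35, against 0.02 for all tested genes. Other genes of the lineage, picked with their values in view, did not pass and differed in both directions. Sp7, the transcription factor osterix, averaged 573 ± 246 in PP1 and 593 ± 152 in PP2 (adjusted p = 0.883). Ibsp, bone sialoprotein, averaged 3131 ± 1547 in PP1 and 6089 ± 2700.3 in PP2 (adjusted p = 0.171), while Spp1, osteopontin, averaged 50009 ± 16008 in PP1 and 30575 ± 13633 in PP2 (adjusted p = 0.203).

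Tgfbi, a matrix protein induced by TGF-beta that binds collagen and integrins, was the most abundant gene called higher in PP1. It had 27462, 22653, 24428 and 22639 normalized counts in PP1, against 13832, 13785, 16429 and 15733 in PP2. The groups did not overlap, PP1 was 1.63-fold higher (log2 difference 0.70 ± 0.11 SE, adjusted p = 0.00334), and the call held in every alternative. Gja1, connexin 43, the main gap junction protein of bone cells, was 1.58-fold higher, with means of 4908 ± 473 in PP1 and 3110.5 ± 354 in PP2 (adjusted p = 0.00923). Car3, a cytosolic carbonic anhydrase, was 9.98-fold higher, at 754 to 1387 in PP1 and 41.1 to 203 in PP2 (adjusted p = 0.000108). Gja1 and Car3 were picked with their values in view.

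Elastic fibre genes gave 2 calls among 22 tested, against 0.834% of all tested genes. Efemp1, fibulin 3, was at 1264 to 2028 normalized counts in PP1 and 452 to 935 in PP2 (2.47-fold higher, adjusted p = 0.0178). Loxl4, a lysyl oxidase relative, was at 1466 to 2149 in PP1 and 599 to 1711 in PP2 (2.14-fold higher, adjusted p = 0.0234), with groups that overlapped. Efemp1 lost its call without PP1 replicate 2 (0.0529), 3 (0.0502) or 4 (0.0631) or PP2 replicate 1 (0.0581). Loxl4 lost it without PP1 replicate 2 (0.0582), 3 (0.0695) or 4 (0.0659) or PP2 replicate 1 (0.0695), 2 (0.0668) or 4 (0.063). Pitx1, a transcription factor of hindlimb identity, had 1911, 1695, 1709.7 and 1799 in PP1, against 1166, 1354, 1029.9 and 1309.6 in PP2. It was 1.47-fold higher in PP1 (adjusted p = 0.0377) and was the only call among 45 tested Hox and limb patterning genes. Pitx1 lost its call without PP1 replicate 1 (0.0848), 2 (0.0601), 3 (0.055) or 4 (0.0782) or PP2 replicate 1 (0.0831) or 3 (0.0784).

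Some genes had reads in every PP1 library and in no PP2 library. Col28a1, a collagen of nerve basement membranes, had 249.6, 95.6, 48.3 and 328 normalized counts in PP1 and was at least 60-fold higher (adjusted p = 0.000763). Mt3, a metallothionein best known from brain, had 25.4, 134, 121 and 241 in PP1 and was at least 43.4-fold higher (adjusted p = 0.000408). Ccl9, a chemokine that osteoclasts secrete, had 674, 359.7, 77.9 and 78.4 in PP1 and was at least 99-fold higher (adjusted p = 0.00251). The floor behind these bounds is 3 reads per library. The calls of all 3 held in every fit that left out a library. With voom on recovered reads all 3 calls were lost (adjusted p = 0.0682 for Col28a1, 0.0682 for Mt3 and 0.093 for Ccl9). MSC averaged 404 ± 91.8 for Col28a1 and 2.75 ± 1.15 for Mt3, and PSC averaged 0 for Mt3. Mt3 therefore reached the minimum count for testing only through its PP1 libraries. Libraries at 0 also add no spread to the fit, here those of PP2 for all 3 genes and of PSC for Mt3. The adjusted p of Mt3 does not allow for this selection and can be too small, also in the fits that left out a library.

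**Figure D4:**
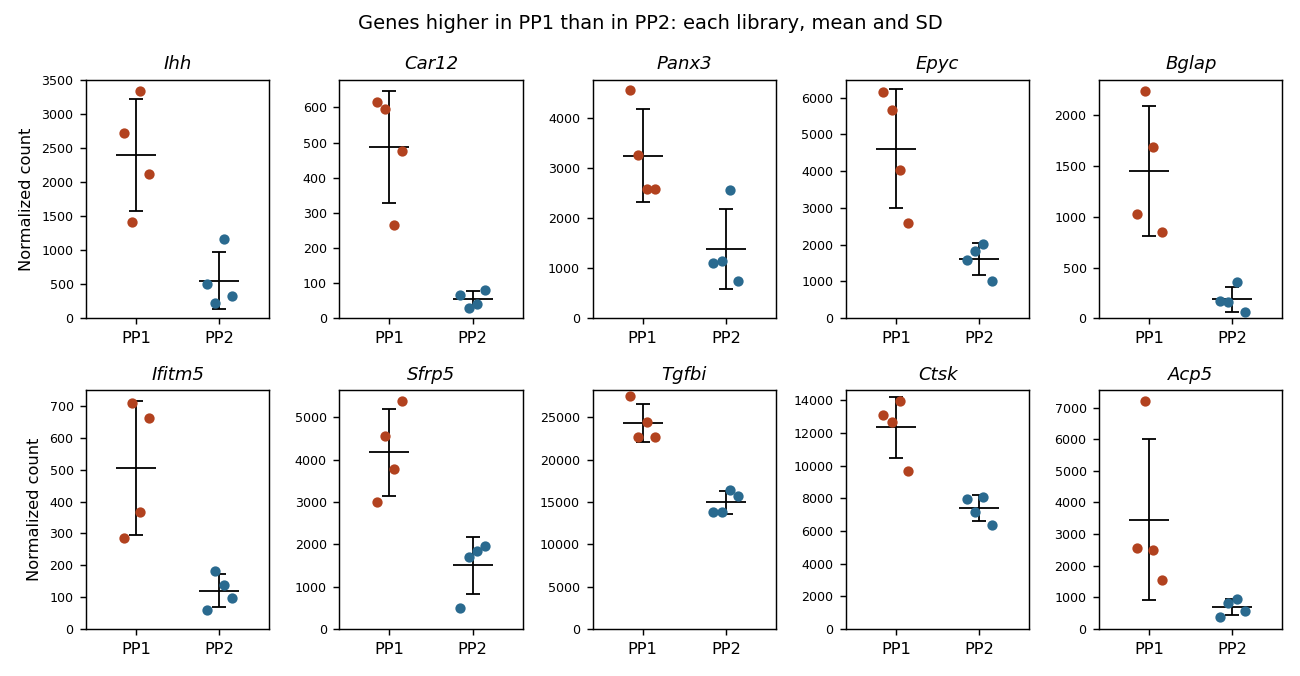
Normalized counts of 10 genes higher in PP1, with 1 point per library, the mean as a short line and the SD as whiskers (n = 4 each). Ihh lies at 1417 to 3344 in PP1 and 216 to 1159 in PP2; in Acp5 PP1 replicate 2 (7202) stands above the other PP1 libraries.

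Of 11 tested osteoclast genes, 3 were called higher in PP1 and 0 lower, against 0.478% and 0.355% of all tested genes. The list median was 2.16, against 0.02 for all tested genes. Acp5, tartrate-resistant acid phosphatase (chromosome 9, 22126727 to 22135711), had 2548, 7202, 2509 and 1535 normalized counts in PP1, against 385, 824, 958 and 581 in PP2. Every PP1 library was above every PP2 library, and PP1 was 4.47-fold higher (log2 difference 2.16 ± 0.36 SE, adjusted p = 0.0039). Atp6v0d2, a proton pump subunit of osteoclasts, had 256, 475, 147 and 174 in PP1, against 1.1, 17.8, 0 and 0.836 in PP2 (adjusted p = 0.00808). Dcstamp, needed for cell fusion, had 42.4, 211, 126 and 22.4 in PP1 and no read in PP2, at least 33.5-fold higher (adjusted p = 0.0225). The Dcstamp call was lost without PP1 replicate 2 (0.0717) or 3 (0.0571). Its partner Ocstamp had 181, 247, 82.8 and 0 in PP1 and no read in PP2 (adjusted p = 0.0935). Mmp9, a gelatinase, had 4823, 7519.8, 964 and 1037 in PP1, against 204, 1693, 530.2 and 402 in PP2, with overlap (adjusted p = 0.0981). Calcr, the calcitonin receptor, was at 0 in all 8 libraries. PSC and MSC averaged 6.31 ± 8.15 and 4.94 ± 3.64 for Atp6v0d2, and 24.4 ± 29.2 and 1.72 ± 1.33 for Dcstamp (SD, n = 4 each). Atp6v0d2 and Dcstamp therefore reached the minimum count for testing only with their PP1 libraries. Their adjusted p does not allow for this selection and can be too small.

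Summed over its 16 members the osteoclast list reached 7193 to 21693.5 normalized counts in PP1 and 3773 to 6547 in PP2. The highest sum was that of PP1 replicate 2, which also had the most Acp5. PSC and MSC were below both progenitor sorts for Acp5, with means of 244 ± 52.1 and 220.0 ± 24.6. Without PP2 replicates 1 and 3 the count fell to 1 of 11, with a median of 1.57. Atp6v0d2 had an adjusted p of 0.086 and Dcstamp 0.105 in that fit.

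Macrophage and monocyte genes gave 3 higher calls and 0 lower among 16 tested, against 0.478% and 0.355% of all tested genes. Their median was 1.67, against 0.02 for all tested genes. Spi1, the myeloid transcription factor PU.1, had 131, 243, 248 and 82.6 normalized counts in PP1, against 0, 11.2, 0 and 0 in PP2 (adjusted p = 0.00808). Csf1r, the receptor of the macrophage growth factor M-CSF, had 129.6, 191, 260.3 and 53.2 in PP1, against 37.4, 0, 0 and 0 in PP2 (adjusted p = 0.0377). Laptm5, a lysosomal protein of blood cells, had 350.1, 771, 368 and 35 in PP1, against 0, 36.4, 0 and 48.5 in PP2, with overlap (adjusted p = 0.0368). Csf1r lost its call without PP1 replicate 1 (0.0703), 2 (0.0882) or 3 (0.0813) or PP2 replicate 2 (0.0819), 3 (0.077) or 4 (0.0757). Laptm5 lost its call without PP1 replicate 1 (0.0838), 2 (0.105) or 3 (0.0801) or PP2 replicate 1 (0.0932) or 3 (0.0776). Spi1 kept its call with any single library left out, and had an adjusted p of 0.0843 without PP2 replicates 1 and 3. Its call was also lost in the fit of the 8 libraries alone (0.0805), with edgeR (0.0943 with RLE and 0.094 with TMM factors) and with voom (0.0684). Tyrobp, a signalling adaptor of these cells, had 245, 403, 260.3 and 113 in PP1, against 0, 54.3, 1.33 and 7.52 in PP2 (adjusted p = 0.0529). Emr1, which encodes F4/80, and Fcgr1 were at 0 in all 8 libraries. The list's sum was 6440.3 to 9011 in PP1 and 4463 to 5465 in PP2, mostly Lgals3, which mesenchymal cells also express.

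Endothelial genes gave 2 higher calls and 0 lower among 21 tested, against 0.478% and 0.355% of all tested genes. Their median was 2.22, against 0.02 for all tested genes. Cdh5, VE-cadherin, had 373, 37.4, 73.9 and 391 normalized counts in PP1, against 0, 0, 33.1 and 0.836 in PP2 (adjusted p = 0.00923). Pecam1, CD31, had 332, 76.9, 33.5 and 118 in PP1, against 0, 0, 0 and 19.2 in PP2 (adjusted p = 0.0444). Gpihbp1, a lipase anchor of capillaries, had 399, 33.3, 74.9 and 255 in PP1, against 0, 0, 0 and 5.01 in PP2 (adjusted p = 0.015). Cdh5 and Gpihbp1 were higher in PP1 replicates 1 and 4 than in replicates 2 and 3. Pecam1 lost its call without PP1 replicate 1 (0.11), 2 (0.0794) or 4 (0.0893) or PP2 replicate 1 (0.0934), 2 (0.0871) or 3 (0.0784). Gpihbp1 lost its call without PP1 replicate 1 (0.0501). PSC and MSC averaged 9 ± 18 and 7.56 ± 6.26 for Gpihbp1 (SD, n = 4 each). This gene therefore reached the minimum count for testing only with its PP1 libraries, and its adjusted p can be too small. Cdh5 kept its call with any single library left out, but lost it in the fit of the 8 libraries alone (0.347), with edgeR (0.259 with RLE and 0.257 with TMM factors) and with voom (0.23). The list summed to 1046 to 2699 in PP1 and 684 to 1450.1 in PP2, so the sums overlapped. No endothelial gene of the list was at 0 in all PP1 libraries and 6 were at 0 in all PP2 libraries.

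Of 16 tested pericyte and smooth muscle genes, Tagln was called higher and 0 lower, against 0.478% and 0.355% of all tested genes. The list median was 1.34, against 0.02 for all tested genes. Tagln, transgelin, an actin-binding protein of contractile cells, had 2482, 2799.8, 1835 and 2752 normalized counts in PP1, against 1411, 380.0, 162 and 1125 in PP2. PP1 was 4.35-fold higher (adjusted p = 0.0315), a call lost without PP1 replicate 1 (0.0703), 2 (0.0834) or 4 (0.0804) or PP2 replicate 2 (0.08). Acta2, smooth muscle actin, averaged 3854 ± 813 in PP1 and 1389 ± 770.0 in PP2 (adjusted p = 0.0552), and Mylk, the kinase of the myosin light chain, 450.0 ± 124 in PP1 and 110.1 ± 30.6 in PP2 (adjusted p = 0.0516). The groups did not overlap in either gene. The list summed to 20589 to 28678 in PP1 and 17643 to 19752.5 in PP2, and Myocd was at 0 in all 8 libraries. MSC averaged more than either progenitor sort for Tagln, at 4400.2 ± 554.

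None of 21 tested skeletal muscle genes passed in the fit of all libraries. Acta1, skeletal muscle actin, had 1608, 1213, 533 and 1006 normalized counts in PP1, against 4093, 2370.1, 1634 and 3207 in PP2. The groups did not overlap (log2 difference -1.40 ± 0.39 SE, adjusted p = 0.105). Mylpf, a fast muscle myosin light chain, averaged 434 ± 178 in PP1 and 939 ± 424 in PP2 (adjusted p = 0.264), and Myl1 301 ± 123 in PP1 and 925 ± 285 in PP2 (adjusted p = 0.394). With the count tools on recovered reads, added after seeing the data, both Acta1 and Myl1 passed as lower in PP1, at adjusted p of 0.0324 and 0.0389 with edgeR and RLE factors, 0.0315 and 0.037 with edgeR and TMM factors, 0.00171 and 0.00434 with DESeq2, and 0.00632 and 0.0473 with voom. The list summed to 1862.5 to 4428 in PP1 and 5154 to 10377 in PP2, and its median was -1.26. The satellite cell genes Pax7 and Myod1 were at 0 in all 8 libraries, as were the muscle myosins Myh1, Myh2, Myh4 and Myh7.

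**Figure D5:**
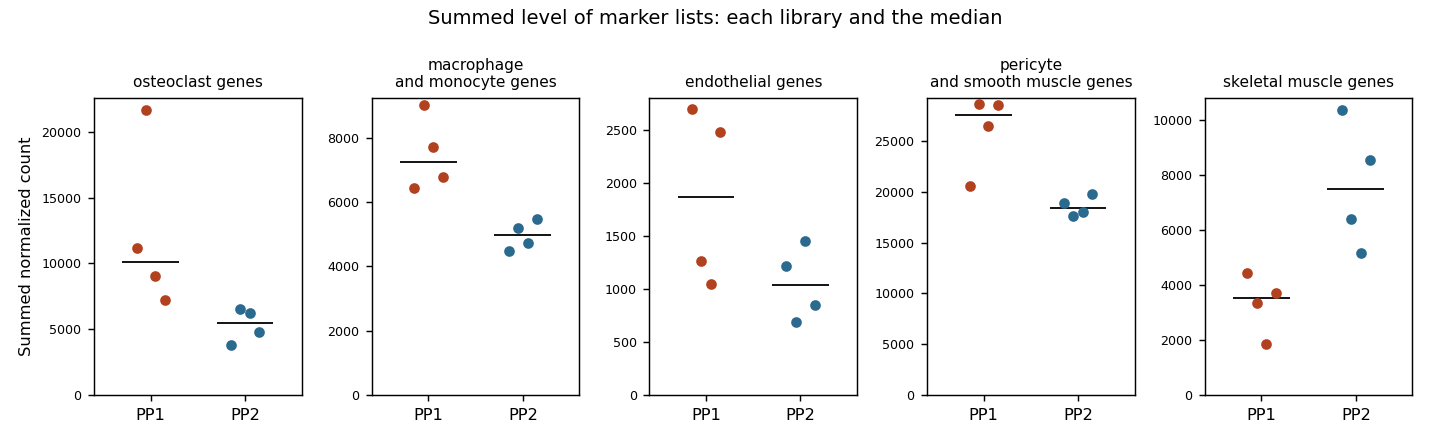
Summed normalized counts of 5 marker lists, with 1 point per library and the median as a line. Osteoclast, macrophage, and pericyte and smooth muscle sums do not overlap between PP1 (left) and PP2 (right), endothelial sums do, and the skeletal muscle sums of PP1 (1862.5 to 4428) lie below those of PP2 (5154 to 10377).

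In bulk samples fewer cells of a type and less RNA per cell cannot be told apart, so these values do not give the number of osteoclasts, vessel cells or muscle fibres in a sort. Their part in the differences of the mesenchymal genes was not tested. Other blood lineages showed no call. Of 15 lymphoid genes, 11 were at 0 in all PP1 libraries and 10 in all PP2 libraries, and the list summed to 93.3 to 242 in PP1 and 0 to 260.5 in PP2. Neutrophil, erythroid, mast cell, megakaryocyte, Schwann cell and neuronal lists also had no called member.

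Of the 47 gene lists, 24 had no called member. Among these were 24 adventitial-type fibroblast genes, 16 tendon and ligament genes, 36 matrix proteases and their inhibitors, 42 BMP genes, 27 FGF and ERK feedback genes and 22 IGF genes. The 49 proliferation genes (median 0.06), 49 cytosolic ribosomal protein genes (median 0.12), 25 cholesterol synthesis genes (median 0.28), 45 collagen processing genes (median -0.06) and 74 mesenchymal transcription factors (median -0.03) also had none. With 0.834% of all genes called, a list of this size would hold few calls or none at the rate of the whole table. In simulated data of this design 8.33% of genes changed 1.5-fold, 33.3% of those changed 2-fold and 68% of those changed 4-fold were recovered, so changes below 2-fold would mostly be missed. The simulation held no outlying libraries, so recovery in these data may differ.

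The PSC and MSC means place the called genes among all 4 populations. Of the 66 genes higher in PP1, the PSC mean was above both progenitor means for 24, between them for 33 and below both for 9. Among all tested genes whose mean was higher in PP1, the PSC mean was above both for 41.7%, between for 18.7% and below both for 39.6%. Of the 49 genes lower in PP1, the PSC mean was above both for 19 (38.8%), between for 16 (32.7%) and below both for 14 (28.6%). Among all tested genes with a lower mean in PP1, these shares were 37.0%, 18.2% and 44.8%. The MSC mean was above both for 34 of the 66 higher genes (51.5%, against 44.1% of all tested genes with a higher mean in PP1) and for 20 of the 49 lower genes (40.8%, against 38.8% of those with a lower mean). It lay between the progenitor means for 23 of the 66 higher genes (34.8%, against 20.7%) and for 22 of the 49 lower genes (44.9%, against 22.6%). These counts describe means only and share the libraries that made the calls.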

How the data were processed

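RNA of sorted femoral cells was sequenced in 16 libraries, 4 per population. The deposited values are gene read counts divided by 1 size factor per library, a signal in normalized counts. Per the submitters' processing notes, TopHat2 2.0.11 was used with the build mm10, HTSeq 0.6.1 and DESeq2 1.6.3, besides bcl2fastq 2.17 and cutadapt. The sources used here give no annotation, filter or strand setting.

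The values were tested as log2(value + 1) with limma 3.58.1 in R 4.3.3 (trended variance, population as the only term, all 16 libraries, 13797 genes, Benjamini-Hochberg adjustment, threshold 0.05). Folds are on that scale, which understates changes of low genes. In the 8 PP1 and PP2 libraries 100% of values were whole reads within 1e-06 once the size factor was undone, and edgeR 4.0.16, DESeq2 1.42.0 and voom were run on those reads as alternatives. Lower-bound folds set groups without reads to 3 reads per library, and cover counting error only. Tested on simulated data with 13405 genes, the fit made 93 calls, 5 of them false. Those counts were drawn around 1 mean per gene for all populations, apart from the genes changed in PP1. No simulated library was set apart as PP2 replicates 1 and 3 are, so the number of false calls does not carry over to these data. Positions are from GENCODE M21 (GRCm38). Of the 115 called genes, 37 have a span, introns included, that overlaps the span of a gene annotated on the opposite strand. Overlap of exons was not examined, so whether reads of such pairs were mixed is not known.

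The members and gene lists were chosen with earlier results of these data known. Named genes are the 12 largest rises and 12 largest falls among called genes without overlap and with a mean of at least 100 in the higher population, up to 4 called members per list and direction, and a few sort genes. Others were picked with their values in view, among them Prrx1, Postn, Clec3a, Fbln7, Srpx, Srpx2, Fap, Kazald1, Wif1, Fzd1, Retsat, Cox4i2, Tmf1, Smo, Ptch1, Gli1, Col10a1, Pth1r, Ppa1, Slc13a5, Bglap2, Sp7, Ibsp, Spp1, Gja1, Car3, Ocstamp, Mmp9, Tyrobp, Acta2, Mylk, Mylpf and Myl1.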

Additional observations from a re-analysis of the deposited data

Results flagged for a closer look

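Among 288 groups of 4 libraries examined, 36 held a library that lay far from the other 3. Chance alone gives about 1 in 20 such groups, and genes without reads in 3 of 4 libraries meet the criterion with any read in the fourth. In PP1 replicate 1 the normalized count that stood apart was 21.8 for Fam154b and 44.8 for Cd40. In PP1 replicate 2 the normalized count that stood apart was 1500.2 for Slc13a5. In PP1 replicate 3 the normalized count that stood apart was 35296 for Cst3, 888 for Slc38a3 and 540.3 for Retsat. In PP1 replicate 4 the normalized count that stood apart was 1678 for Trafd1 and 36.4 for Col7a1. In PP2 replicate 1 the normalized count that stood apart was 37.4 for Csf1r, 10237 for Lamb1, 20529.6 for Clec3a and 1683 for Adh1. In PP2 replicate 2 the normalized count that stood apart was 11.2 for Spi1, 17.8 for Atp6v0d2, 27.5 for Cbln2, 6.69 for Map3k7cl, 116 for Crtac1, 14.1 for Gpr56, 45.4 for Rab20, 10.4 for Nlgn3, 8.92 for H2-DMb2 and 54.3 for Tyrobp. In PP2 replicate 3 the normalized count that stood apart was 33.1 for Cdh5, 33.1 for Dgkq, 1711 for Loxl4 and 2287 for Slc2a13. In PP2 replicate 4 the normalized count that stood apart was 5.01 for Gpihbp1, 24.2 for Slc37a2, 19.2 for Pecam1, 29.3 for Pdp2, 15 for Mlip, 46 for F11r, 36.8 for Myo7a, 13.4 for Egr3, 177 for Isg20 and 1.67 for Bglap3.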

How the results depend on the processing

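Under the 22 alternatives, no called gene changed direction, and 10 kept their call in every alternative that tested them. Against 115 calls (66 higher and 49 lower in PP1), leaving out 1 library gave 99 to 181 calls, 51 to 120 higher and 43 to 61 lower. The most, 181 with 120 higher, came without PP2 replicate 4. The fit of the 8 PP1 and PP2 libraries alone gave 28 calls, 14 in each direction. Its spread was estimated from fewer samples and without PSC and MSC, and the cause of the lower count was not tested. Without PP2 replicates 1 and 3 there were 105. Pseudocounts of 0.5 and 8 gave 108 and 150 calls, no filter gave 94, a minimum of 50 gave 111, and a filter on the 8 libraries gave 120.

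Chosen after seeing the data, a TMM rescaling gave 116 calls. Genes with a read in all 8 libraries gave 77 (32 higher, 45 lower), fewer genes being tested. Of the count tools on recovered reads, edgeR gave 62 calls (28 higher, 34 lower) with RLE factors and 63 (28 higher, 35 lower) with TMM factors, DESeq2 gave 151 (75 higher, 76 lower) and voom gave 79 (34 higher, 45 lower). The share of calls that were higher was 57.4% in the reported fit, against 41.6% with a read in all 8 libraries, 45.2% and 44.4% with edgeR and 43.0% with voom. The cause was not tested.

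Same-numbered PP1 and PP2 libraries correlated at 0.0258, 0.0236, 0.0463 and 0.0329 in their deviations from the group means. Each library correlated best with its own number, but none over 0.1, and the numbers were not taken as pairs. That limit is a choice and not a test, and whether same-numbered libraries share a mouse is not labelled. A replicate block raised the calls to 227 (135 higher, 92 lower), with all 115 among them.

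Only uncalled genes reversed. The log2 difference of Enpep was 1.35 as reported, -0.57 without PP2 replicate 1, -0.15 without PP2 replicates 1 and 3, -0.28 and -0.27 with edgeR and -0.28 with DESeq2. With 1 library left out Enpep ranged from -0.57 to 2.27. Sp7 (-0.12 as reported) ranged from -0.37 to 0.16 with 1 library left out, with 0.16 without PP1 replicate 4 and 0.04 without PP2 replicate 1, and was 0.015 without PP2 replicates 1 and 3. In the same fits Smo ranged from -0.012 (without PP1 replicate 3) to 0.099, and Ptch1 from -0.012 (without PP2 replicate 1) to 0.40. Col10a1 ranged from -0.10 (without PP2 replicate 4) to 2.29 and was -0.23 with each edgeR fit and with DESeq2. Of the list medians, 39 of 1030 moved by more than their spread over libraries. Of the 115 calls, 44 were of genes without a read in at least 1 of the 8 libraries. The part of sequencing depth in these calls was not tested.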
